A study of Homo sapiens with 6 samples.

Results

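The 160 expressed long intergenic noncoding RNA genes of human HEK293T cells were compared between cells depleted of one such RNA and cells that received a control siRNA. They were selected on their mean level, as the noncoding rows of the deposited table whose symbol is LINC followed by digits, without the siRNA target itself, and whose mean over the 6 libraries was at least 14.7 deposited units, which is 0.5 CPM (read counts scaled to a common library size). Of 884 LINC rows among 26391 rows in all, 393 were at 0 in every library, 330 were above 0 but under this level, and 160 passed. The rule used the mean level over all libraries, so levels are given as a description, and the difference between the siRNAs was not part of the rule. At its edge, LINC00312 with 14.9 and LINC00441 with 15.1 deposited units were just inside, and LINC01372 with 14.2 and LINC00877 with 14.5 were just outside.

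HEK293T is an established line of human embryonic kidney cells that carries the SV40 large T antigen. All 6 samples were of this 1 line, were transfected with the same lipid reagent and were lysed 48 h later. In 3 of them a pool of 4 siRNAs targeted LOC550643, and in the other 3 a non-silencing human siRNA was used. LOC550643 is LINC01420, now named NBDY, whose transcript encodes a small polypeptide known to bind the mRNA decapping machinery. Poly-A RNA was sequenced, so RNAs without a poly-A tail are poorly covered. The sources used here do not say whether the replicates were separate cultures, and the p-values therefore cover only the spread among these libraries. In bulk samples, fewer cells of a type and less RNA per cell cannot be told apart.

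Long intergenic noncoding RNAs are transcribed by RNA polymerase II, mostly spliced and polyadenylated, and lie between protein-coding genes. Many stay in the nucleus and are degraded by the nuclear exosome, some act on the gene next to them, some bind RNA-binding proteins, and a number of transcripts that were first named LINC were later found to encode small proteins. Their symbols are provisional. All 160 were matched to a current RefSeq gene, 43 of them have since received another symbol, and 10 are now listed as protein-coding.

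Depth was 30739321 to 36082404 read pairs in 5 libraries and 8604236 read pairs in LOC550643 siRNA replicate 3. These depths were recovered from the scaled values, assuming that both ends of each pair were counted. Of low values, 59.2% to 61.0% per library were even multiples of a read end, so this did not hold for every pair. The depths, and the floors and filter given in read pairs, are therefore approximate. A floor of 3 read pairs was 0.0831 to 0.0976 CPM in those 5 libraries and 0.349 CPM in LOC550643 siRNA replicate 3, where 5 of the 160 genes were under it. The target LINC01420 was at 50.7 to 56.2 CPM in the control libraries and at 5.42 to 5.96 CPM after LOC550643 siRNA, a log2 fold change of -3.20 (SE 0.088, limma adjusted p = 7.38e-09). The siRNA-targeted transcript was therefore lower in each library labelled as silenced. HEK293 lineage genes were detected, 8 of 8, with VIM at 813 ± 49.8 CPM (SD, n = 3) in the controls. Markers of blood (PTPRC), endothelium (PECAM1, CDH5), liver (ALB) and cardiac muscle (MYH7) stayed under 0.5 CPM, while the collagen gene COL1A1 stood at 64.7 ± 4.86 CPM and the epithelial gene EPCAM at 1.43 ± 0.099 CPM (SD, n = 3) in the controls.

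The level of the 160 genes was low and uneven. The median was 2.45 CPM against 29.2 CPM over all 16245 genes tested, 37 genes were under 1 CPM, and 24 were at 10 CPM or more. Together they made up 1350 to 1470 CPM in the control libraries and 1298 to 1348 CPM after LOC550643 siRNA. LINC00657 alone gave 20.5% to 27.3% of that sum. Median exonic length was 2048 bases, 26 genes had a single exon, and 27 overlapped another row of the table.

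After LOC550643 siRNA, 11 of the 160 genes were called higher and 29 were called lower at an adjusted p under 0.05 (limma on log2 values, Benjamini-Hochberg over all 16245 genes). Among all genes tested, 17.5% were called higher and 18.1% lower, 35.6% in all. Thus 6.88% of the LINC genes were called higher, under the share of all genes, 18.1% were called lower, the same as the share of all genes, and 25.0% were called in either direction. With scaling to library totals alone the split was 8 higher and 37 lower among the LINC genes, and 2081 higher and 3976 lower among all genes. The count of rises fell to 6 without control replicate 1, without LOC550643 siRNA replicate 1 or without LOC550643 siRNA replicate 2, and the count of falls was 18 without control replicate 1.

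Level has to be taken into account in these shares, since low genes had wider errors. The median SE of a log2 fold change was 0.199 for the LINC genes and 0.094 over all genes. Among genes from the lowest LINC level to under 20 CPM, 8.13% of all genes were called higher and 21.5% lower, against 6.62% and 18.5% of the 151 LINC genes in that range. Protein-coding genes there gave 8.72% and 24.1%, and the other noncoding rows gave 6.54% and 13.6%. Among genes at 20 CPM or more, 24.7% were called higher and 16.8% lower, and of the 9 LINC genes there 1 was called higher and 1 lower. In this range under 20 CPM, the shares of the LINC genes were slightly below those of all genes in both directions. Against the other noncoding rows, the share called higher was near and the share called lower was larger. The classes were not matched in level within the range. The median was 2.18 CPM in the LINC genes, 2.37 in the other noncoding rows, 4.92 in all genes and 6.28 in protein-coding genes.

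**Figure D1:**
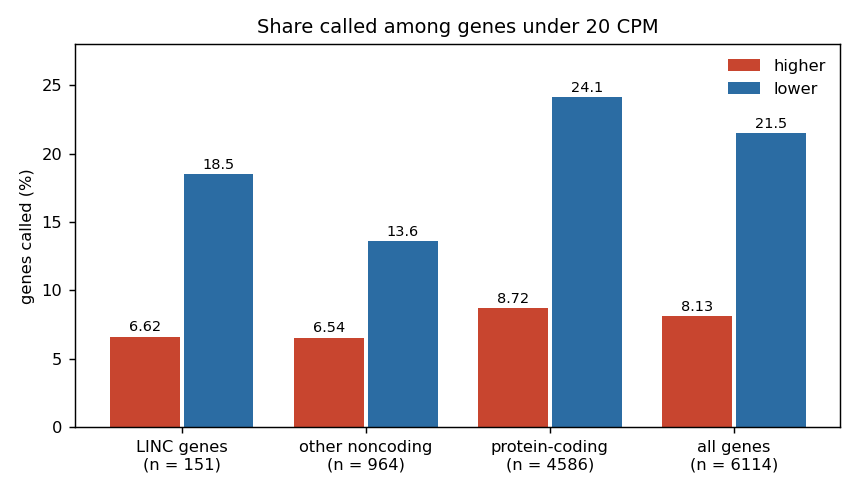
Percentage of genes called higher (red) or lower (blue) by limma at an adjusted p under 0.05, among genes from the lowest LINC level to under 20 CPM, for the LINC genes, the other noncoding rows, the protein-coding rows and all genes. In each class more genes were called lower than higher, with 6.62% and 18.5% in the LINC genes against 8.13% and 21.5% in all genes.

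The median log2 fold change of the 160 genes was -0.16, and 116 of them (72.5%) were below 0. Over all genes the median was -0.02 with 52.5% below 0. Among all genes under 20 CPM it was -0.13 with 63.7% below 0, and among the other noncoding rows under 20 CPM it was -0.09 with 59.3% below 0. Changes past 1 on the log2 scale were called in 9 of the 160 LINC genes, 2 higher and 7 lower. The same count was 450 of all 16245 genes and 304 of the 6114 genes under 20 CPM. The range over the LINC genes ran from -1.51 to 1.78. Of the 40 called genes, 1 rise (LINC01411) and 4 falls (LINC00482, LINC00853, LINC01197 and LINC01341) had a mean under 0.5 CPM in the lower group, so the level rule admitted them only through the group in which they were high, and their calls support nothing about the set. Groups did not overlap in CPM for 58 of the 160 genes (36.2%), where all genes gave 48.6%. Of these 58, 39 were among the 40 called genes. The authors' deposited table gave the same direction for 157 of the 160 genes.

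**Figure D2:**
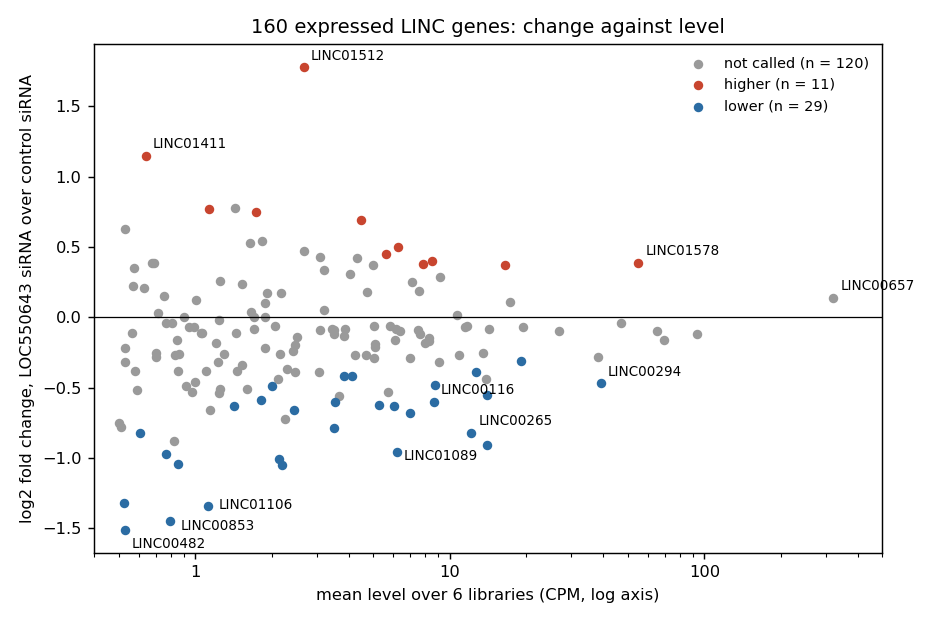
Log2 fold change of each of the 160 LINC genes (LOC550643 siRNA over control siRNA, vertical axis) against its mean level in CPM (log axis), with called rises in red (n = 11), called falls in blue (n = 29) and the other 120 in grey. The largest fold changes lie at the left, among genes of a few CPM or less, and the most abundant gene, LINC00657, sits near 0 at 0.14.

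LINC00657 was the most abundant gene. It is now named NORAD (noncoding RNA activated by DNA damage), a cytoplasmic RNA known for binding proteins of the Pumilio family, which repress mRNAs that carry their recognition element, and for a role in keeping chromosome number stable. In the files it is 1 exon at chr20:34633540-34638882 (GRCh37, minus strand). The Pumilio element was searched as TGTANATA on the transcribed strand, and LINC00657 held 15 matches in 5343 bases, or 2.81 per kb. The 25 other single-exon LINC genes held 6 matches in all, or 0.09 per kb. Of consecutive windows of 300 bases, 9 of 17 in LINC00657 (52.9%) and 4 of 211 in the others (1.9%) held a match. The 200 bases with the most matches, 3, are shown because they carry the feature for which this RNA is known. They are bases 2456 to 2655 of the transcript, chr20:34636228-34636427, with the matches in capitals.

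LINC00657: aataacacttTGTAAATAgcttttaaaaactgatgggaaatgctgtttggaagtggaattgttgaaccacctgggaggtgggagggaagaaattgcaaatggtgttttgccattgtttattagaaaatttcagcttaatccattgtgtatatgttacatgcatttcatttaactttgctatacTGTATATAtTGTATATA

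LINC00657 stood at 279.5, 324.7 and 310 CPM in the 3 control libraries and at 295.6, 354.9 and 360.1 CPM after LOC550643 siRNA. The lowest siRNA library lay inside the control range, so the groups overlapped. The change on the log2 scale was 0.14 (SE 0.092, limma adjusted p = 0.252). Transcripts of its protein partners were measured beside it. Of 8 listed partners, 3 rose and 0 fell, a share near the 35.6% of all genes called. ALYREF, an mRNA export adaptor, rose by 0.61 (SE 0.072, limma adjusted p = 0.000101), and PRPF19, a splicing and DNA repair factor, by 0.57 (SE 0.076, limma adjusted p = 0.00023). TOP1, the type I topoisomerase, rose by 0.48 (SE 0.086, limma adjusted p = 0.00143). PUM2, of the Pumilio family, gave 0.11 and did not pass (limma adjusted p = 0.269).

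Per kilobase of exon, LINC00657 was not the highest. LINC00493 had 77.6 CPM per kb, LINC00998 61.9 and LINC00657 60.1 (means over 6 libraries), followed by LINC01578 at 30.8. Of the 12 genes with the highest CPM, 3 were called, where 25.0% of the 160 and 35.6% of all genes were. The 3 were LINC01578 with a rise, and LINC00294 and LINC00888 with falls.

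LINC01578 is now named CHASERR, a noncoding RNA that lies just upstream of the chromatin remodeler gene CHD2 on the same strand and is known to hold CHD2 down. Its control libraries had 49.2, 45.5 and 47.8 CPM and its LOC550643 siRNA libraries 58.4, 62.1 and 66.2 CPM. Every siRNA library was above every control library. The change on the log2 scale was 0.39 (SE 0.074, limma adjusted p = 0.00205). CHD2, 1574 bp downstream, gave 0.28 and did not pass (limma adjusted p = 0.207).

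LINC00294 had 43.4, 50.2 and 42.7 CPM in the control libraries and 34, 27.9 and 36.7 CPM after LOC550643 siRNA. The groups did not overlap, and it fell by 0.47 (SE 0.107, limma adjusted p = 0.0055). LINC00888, now the small nucleolar RNA host gene SNHG33, fell by 0.31 (limma adjusted p = 0.0385). Leaving out control replicate 1 (limma adjusted p = 0.109), control replicate 3 (0.117) or LOC550643 siRNA replicate 3 (0.125) ended that call, and the change without the last was -0.20.

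The remaining abundant genes did not pass. LINC00094, now BRD3OS, lies opposite the chromatin reader gene BRD3 and overlaps it. It had 97.2, 94.2 and 101.9 CPM in controls and 92.6, 92.1 and 85.2 CPM after LOC550643 siRNA, and although every siRNA library was below every control library, the change of -0.12 did not pass (SE 0.069, limma adjusted p = 0.195). BRD3 rose by 0.26 (limma adjusted p = 0.0102), and reads of the overlap may have been given to both genes. LINC00674 gave -0.10 (limma adjusted p = 0.332), LINC01278 gave -0.10 (limma adjusted p = 0.371) and LINC00339 gave -0.07 (limma adjusted p = 0.664). LINC01021, now PURPL, a p53-induced RNA, gave 0.11 (limma adjusted p = 0.486). Their SEs of 0.078 to 0.116 do not resolve a small change in either direction. LINC01000 gave -0.04 with a wider error (SE 0.221, limma adjusted p = 0.909).

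The largest rise was that of LINC01512. It is a spliced gene on chromosome 6 whose nearest tested protein-coding gene is VEGFA, the vascular growth factor, 104542 bp away on the same strand. Its control libraries had 1.49, 0.725 and 1.45 CPM and its LOC550643 siRNA libraries 4.90, 3.75 and 3.69 CPM. All siRNA libraries were above all control libraries, with control replicate 2 the lowest. The change on the log2 scale was 1.78 (SE 0.261, limma adjusted p = 0.000403) and ranged from 1.44 to 1.96 when 1 library was left out. VEGFA rose by 0.29 (limma adjusted p = 0.00767).

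Other rises were smaller. LINC01605 had 3.71, 3.54 and 2.94 CPM in controls and 4.55, 5.71 and 6.31 CPM after LOC550643 siRNA, a log2 fold change of 0.69 (SE 0.159, limma adjusted p = 0.00601), without overlap. LINC00839 had 14.4, 14.8 and 14 CPM against 18.4, 19.4 and 18 CPM, a rise of 0.37 (SE 0.084, limma adjusted p = 0.00528), also without overlap. It is the 11th rise by size and was named after its values were seen. LINC01512, LINC01578, LINC00839 and LINC01605 were the 4 rises that passed in each of the 6 fits that left out 1 library.

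The other 7 rises were lost when at least 1 library was left out. LINC00152, now CYTOR, a cytoskeleton-linked RNA often studied in tumours, had 0.966, 0.929 and 0.622 CPM in controls and 1.36, 1.498 and 1.43 CPM after LOC550643 siRNA, a rise of 0.77 (SE 0.233, limma adjusted p = 0.024). Its adjusted p was 0.0936 without control replicate 3, 0.0513 without LOC550643 siRNA replicate 1 and 0.0775 without LOC550643 siRNA replicate 2. Its near-identical copy MIR4435-2HG gave 0.18 (limma adjusted p = 0.67), and reads that fit both may have been split between them. LINC01411, included only through the LOC550643 siRNA libraries since its control mean was under 0.5 CPM, rose by 1.15 from 0.392 ± 0.176 to 0.884 ± 0.304 CPM (SD, n = 3; limma adjusted p = 0.0356) and reached an adjusted p of up to 0.152 with 1 library left out. LINC00471 rose by 0.75, LINC00909 by 0.50, LINC00693 by 0.45, LINC01547 by 0.40 and LINC01311 by 0.38 (limma adjusted p from 0.0193 to 0.0401). With 1 library left out, the highest adjusted p of these 5 lay between 0.0607 for LINC00471 and 0.148 for LINC01311. The change of LINC00909 was 0.31 without control replicate 2. None of the 7 had overlapping groups with all 6 libraries.

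**Figure D3:**
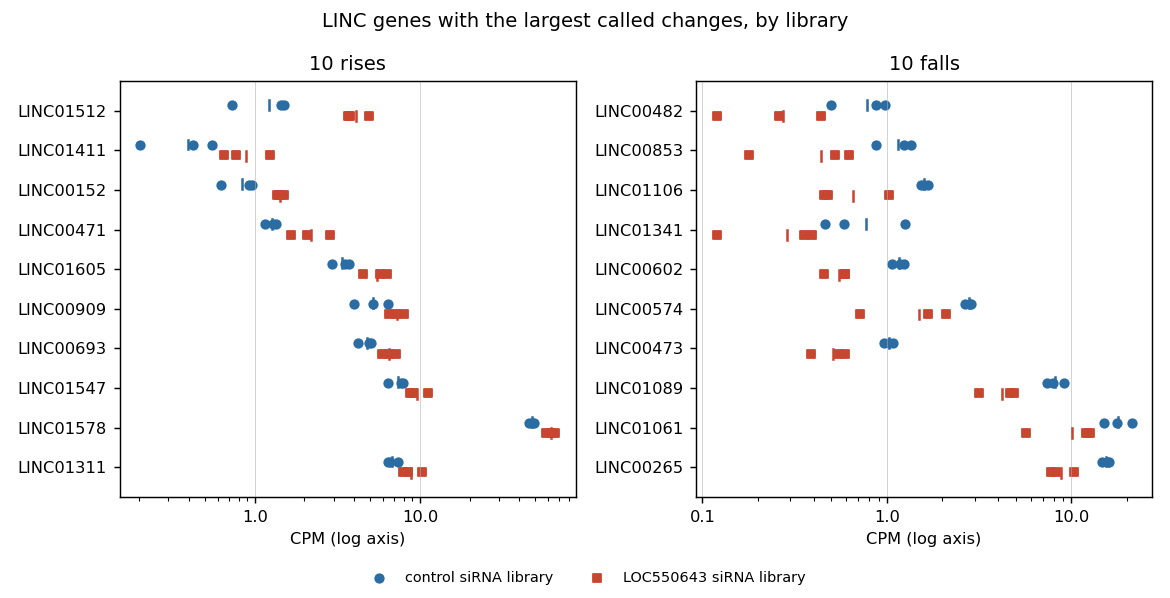
Level of the 10 largest rises (left) and the 10 largest falls (right) among called genes whose groups do not overlap, in each library, in CPM on log axes, with control siRNA libraries as blue circles, LOC550643 siRNA libraries as red squares and group means as vertical bars (n = 3 each). The absence of overlap was a condition for showing a gene, which left out the called fall LINC00341 at -1.05. For LINC00482, LINC00853 and LINC01341 the leftmost red point is LOC550643 siRNA replicate 3, under its floor of 0.349 CPM.

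The falls were spread over 18 chromosomes. LINC00265 had 14.6, 15.8 and 15.9 CPM in the control libraries and 10.3, 8.27 and 7.74 CPM after LOC550643 siRNA. All siRNA libraries were below all control libraries. It fell by 0.82 (SE 0.118, limma adjusted p = 0.000351), the smallest adjusted p of the falls. Its nearest protein-coding gene, the small GTPase gene RALA 25444 bp away, did not pass (limma adjusted p = 0.994).

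LINC01089, also known as LIMT, had 7.91, 9.11 and 7.36 CPM in controls and 4.64, 4.88 and 3.16 CPM after LOC550643 siRNA. It fell by 0.96 (SE 0.169, limma adjusted p = 0.00128) without overlap. Its divergent neighbour SETD1B, a histone methyltransferase gene 1248 bp away, gave 0.14 (limma adjusted p = 0.433).

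LINC01106 had 1.59, 1.67 and 1.53 CPM in controls and 1.03, 0.454 and 0.476 CPM after LOC550643 siRNA. It fell by 1.34 (SE 0.302, limma adjusted p = 0.00528), with no overlap between the groups. LINC01061 fell by 0.91 (SE 0.253, limma adjusted p = 0.0164), from 17.6, 21.2 and 15 CPM to 12, 5.64 and 12.6 CPM. LOC550643 siRNA replicate 2 was the lowest library for it, and without that library the log2 fold change was -0.53 (limma adjusted p = 0.0208).

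LINC00482, LINC00853 and LINC01341 also had large negative fold changes, which rested on few reads. Their means after LOC550643 siRNA were 0.273, 0.441 and 0.288 CPM, under the level of 0.5 CPM, so they were included only through the control libraries, where they were higher. LINC00482 gave -1.51 (SE 0.436, limma adjusted p = 0.0194), LINC00853 gave -1.45 (SE 0.402, limma adjusted p = 0.0157), and LINC01341 gave -1.32 (SE 0.472, limma adjusted p = 0.0481). In LOC550643 siRNA replicate 3 they stood at 0.119, 0.179 and 0.119 CPM, under that library's floor of 0.349 CPM. Without this library LINC00482 gave -1.08 (limma adjusted p = 0.0473), LINC00853 gave -0.95 (limma adjusted p = 0.0225) and LINC01341 gave -0.85 (limma adjusted p = 0.135). LINC00482 was also lost without control replicate 1 (0.079) or control replicate 2 (0.0617), LINC00853 without control replicate 3 (0.0528), and LINC01341 had 0.0866 without control replicate 1, 0.181 without control replicate 2 and 0.0634 without LOC550643 siRNA replicate 2.

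LINC00473 and LINC00602 both fell, and they cover each other's starts. They lie head to head on chromosome 6, LINC00473 on the minus strand and LINC00602 on the plus strand, and their spans overlap over 489 bases at chr6:166401039-166401527. The sources used here do not state whether counting used the strand, so reads in the overlap may have been given to both. LINC00602 had 1.18, 1.23 and 1.07 CPM in controls and 0.594, 0.454 and 0.596 CPM after LOC550643 siRNA, and it fell by 1.04 (SE 0.241, limma adjusted p = 0.00611). LINC00473 had 1.03, 1.07 and 0.961 CPM and then 0.551, 0.387 and 0.596 CPM, and it fell by 0.97 (SE 0.261, limma adjusted p = 0.0134). Neither had overlapping groups, and the LINC00473 call ended when control replicate 1 (0.0574) or LOC550643 siRNA replicate 2 (0.0517) was left out. LINC00473 is known as a target of cAMP signalling through CREB, whose recognition element is TGACGTCA with the shorter TGACG as its half-site.

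Promoters, taken as 250 bases before to 50 after the start in the files (GRCh37), were searched on both strands for TGACGTCA, for TGACG, which it contains, for TGANTCA (the AP-1 element, bound by Fos and Jun proteins) and for TGATGCAA (an element of C/EBP and ATF factors). Among all 16245 tested genes, 2.9% held TGACGTCA, 30.4% TGACG, 4.43% TGANTCA and 0.419% TGATGCAA. Among the 160 LINC genes the shares were 1.88%, 26.9%, 6.25% and 0%. The 29 falls included 1 with TGACGTCA and 2 with TGANTCA, and the 11 rises included 0 and 3. The 3 rises with TGANTCA were LINC00152, LINC01411 and LINC01605. LINC01411 was included only through the LOC550643 siRNA libraries, and the call of LINC00152 was lost in some fits that left out 1 library. The count therefore supports nothing about the rises as a set. Promoter GC content had a median of 59.3% in the LINC genes and 64.3% in all genes. A match is a description of the letters, not a site shown to be bound.

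The promoters of 4 called genes are shown: the largest rise (LINC01512, without a match to any of the 4 motifs), a rise with 2 TGANTCA matches (LINC00152), the fall with the smallest p, which holds TGACGTCA (LINC00265), and 1 gene of the head-to-head pair above (LINC00473, with TGACG or its reverse complement). Matches are in capitals. They are chr6:43858515-43858814 (plus strand), chr2:87754724-87755023 (plus), chr7:39772917-39773216 (plus) and chr6:166401478-166401777 (minus).

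LINC01512: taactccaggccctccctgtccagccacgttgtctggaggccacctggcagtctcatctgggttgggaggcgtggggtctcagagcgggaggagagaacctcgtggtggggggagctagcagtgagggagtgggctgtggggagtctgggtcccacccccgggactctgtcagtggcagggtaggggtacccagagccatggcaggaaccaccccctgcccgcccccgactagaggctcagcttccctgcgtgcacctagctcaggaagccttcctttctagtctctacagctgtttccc

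LINC00152: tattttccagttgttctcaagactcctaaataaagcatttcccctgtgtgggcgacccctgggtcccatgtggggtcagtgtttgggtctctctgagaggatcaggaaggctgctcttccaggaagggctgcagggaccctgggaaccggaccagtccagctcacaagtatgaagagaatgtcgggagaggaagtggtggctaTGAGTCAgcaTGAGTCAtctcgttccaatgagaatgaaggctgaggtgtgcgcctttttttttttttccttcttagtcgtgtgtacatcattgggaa

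LINC00265: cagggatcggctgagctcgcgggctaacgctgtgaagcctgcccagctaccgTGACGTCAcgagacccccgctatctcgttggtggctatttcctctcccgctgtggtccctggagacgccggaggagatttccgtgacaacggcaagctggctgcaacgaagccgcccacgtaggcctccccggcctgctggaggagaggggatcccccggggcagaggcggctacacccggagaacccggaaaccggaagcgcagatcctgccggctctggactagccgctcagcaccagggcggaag

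LINC00473: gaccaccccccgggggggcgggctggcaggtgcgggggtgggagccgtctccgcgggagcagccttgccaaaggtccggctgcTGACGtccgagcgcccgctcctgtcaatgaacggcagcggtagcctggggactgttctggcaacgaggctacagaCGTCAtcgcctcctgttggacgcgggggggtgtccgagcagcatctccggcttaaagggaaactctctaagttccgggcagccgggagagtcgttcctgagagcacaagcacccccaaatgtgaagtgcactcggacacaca

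Of the 5 pairs of LINC genes within 10000 bp of each other, LINC00473 and LINC00602 were the pair with both members called. LINC00574 fell by 1.01 (SE 0.318, limma adjusted p = 0.0283), while LINC00242, which overlaps it on the other strand over 8753 bp, gave -0.11 and was not called. LINC00574 stood at 2.84, 2.83 and 2.67 CPM in controls and at 2.10, 1.67 and 0.714 CPM after LOC550643 siRNA, and without the last library the change was -0.56 (limma adjusted p = 0.0328). Its call was lost without control replicate 1 (0.0769) or control replicate 3 (0.0598). The divergent pair LINC00115 and LINC01128, 69 bp apart, gave -0.06 and -0.39, of which the second was called (limma adjusted p = 0.0156, and 0.0511 without LOC550643 siRNA replicate 3). The divergent pair LINC00882 and LINC00883, 54 bp apart, gave -0.22 and -0.60, again with the second called (limma adjusted p = 0.0169). For LINC00883, now DUBR, the call ended when control replicate 2 (0.0528), control replicate 3 (0.0626) or else LOC550643 siRNA replicate 2 (0.0611) was left out.

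Further falls that passed in each of the 6 fits that left out 1 library were named after their values were seen. LINC00173 fell by 0.55 (SE 0.11, limma adjusted p = 0.00274), from 15.7, 19 and 15.4 CPM to 12.2, 11.5 and 10.4 CPM. LINC00491 fell by 0.63 (SE 0.127, limma adjusted p = 0.00275), from 6.91, 6.83 and 8.36 CPM to 4.98, 4.36 and 4.82 CPM. LINC01604, now MINCR, an RNA known as induced by MYC, fell by 0.48 (SE 0.104, limma adjusted p = 0.0042). LINC01024, now MALINC1, a mitosis-associated RNA, fell by 0.79 (SE 0.166, limma adjusted p = 0.00371), and its divergent neighbour PURA, a gene of a single-strand DNA-binding protein 6111 bp away, fell by 0.60 (limma adjusted p = 0.000412). In all, 12 of the 29 falls and 4 of the 11 rises passed in each of these 6 fits.

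The transcripts that encode small proteins formed a group of their own. A list of 12 such genes had 8 tested genes, of which 1 was called higher, 2 lower and 5 neither, while 35.6% of all genes were called. The list holds the siRNA target itself, whose fall was set by the design, so its share cannot be compared with that of all genes. The 5 members of the 160 on this list were LINC00116, LINC00493, LINC00998, LINC00467 and LINC00665. The rise was that of SMIM10L2B, from 10.9, 9.68 and 9.88 CPM to 23.5, 22.6 and 17.3 CPM, a log2 fold change of 1.04 (SE 0.122, limma adjusted p = 9.49e-05). Its near-identical copy SMIM10L2A gave 0.21 (limma adjusted p = 0.128), and reads shared by the copies may have been split between them. The falls were those of the target and of LINC00116.

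LINC00116 is now MTLN, the gene of mitoregulin, a small protein of the mitochondrial inner membrane that supports fatty acid oxidation and respiratory complexes. It had 12.5, 8.92 and 9.82 CPM in the control libraries and 7.79, 6.45 and 6.31 CPM after LOC550643 siRNA. The groups did not overlap, with control replicate 1 the highest. It fell by 0.60 (SE 0.143, limma adjusted p = 0.00742), and the change with 1 library left out lay between -0.71 and -0.45. LINC00493, now SMIM26, another mitochondrial small protein gene, had 47.5, 36.5 and 41.4 CPM and then 38.2, 30.6 and 34.1 CPM. Its groups overlapped, and it gave -0.28 (SE 0.109, limma adjusted p = 0.0626). LINC00998, now SMIM30, which encodes a small membrane protein, gave -0.16 (limma adjusted p = 0.202). LINC00467 gave -0.06 (limma adjusted p = 0.828) and LINC00665 gave 0.26 (limma adjusted p = 0.476).

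The coding sequences of LINC00116 and LINC00998, each in 1 exon of the GENCODE annotation lifted to GRCh37, are shown because they are why these genes were renamed. They lie at chr2:110969932-110970102 and chr7:112757454-112757633, both on the minus strand, and hold 56 and 59 codons before the stop. The first and last codons are in capitals.

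LINC00116: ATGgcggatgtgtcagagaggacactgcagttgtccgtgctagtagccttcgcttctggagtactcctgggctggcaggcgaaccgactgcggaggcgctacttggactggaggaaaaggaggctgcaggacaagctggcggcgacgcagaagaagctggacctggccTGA

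LINC00998: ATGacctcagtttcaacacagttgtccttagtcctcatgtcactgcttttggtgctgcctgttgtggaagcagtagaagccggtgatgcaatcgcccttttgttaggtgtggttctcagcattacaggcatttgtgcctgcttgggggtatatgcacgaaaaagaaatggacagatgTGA

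Over the 10 genes that RefSeq now lists as protein-coding, a grouping made after the values were seen, all 10 log2 fold changes were below 0 with a median of -0.43. By comparison, 72.5% of the 160 were below 0, and 25.0% of the 160 and 35.6% of all genes were called in either direction. The called ones were 4 falls: LINC00116, LINC00634 (now SMIM45) at -0.62 (limma adjusted p = 0.0119), LINC00176 (now C20orf204) at -0.68 (limma adjusted p = 0.0283) and LINC00341 at -1.05 (limma adjusted p = 0.0242). LINC00341 is now part of SYNE3, a nuclear envelope gene, whose own row fell by 0.61 (limma adjusted p = 0.0335). LINC00341 had overlapping groups, and its adjusted p was 0.0628 without control replicate 1, 0.0736 without control replicate 2, 0.0823 without LOC550643 siRNA replicate 2 and 0.0915 without LOC550643 siRNA replicate 3. LINC00176 was lost without control replicate 2 (-0.41, limma adjusted p = 0.0637), LOC550643 siRNA replicate 1 (0.0524) or LOC550643 siRNA replicate 2 (0.113).

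Among the 160 genes, 4 host a microRNA row of the table on their own strand, and none of the 4 was called. Of all 160 LINC genes 25.0% were called, and of all genes 35.6%, and 4 genes are too few to tell apart from these shares. LINC00461 holds MIR9-2, a source of miR-9, a regulator of neural development. It had 3.34, 3.85 and 3.63 CPM in controls and 2.91, 3.72 and 3.57 CPM after LOC550643 siRNA, with overlapping groups and a log2 fold change of -0.09 (SE 0.15, limma adjusted p = 0.682). LINC00669, host of MIR924 and MIR5583-2, gave 0.42 (limma adjusted p = 0.0683), LINC00969, host of MIR570, gave -0.53 (limma adjusted p = 0.159), and LINC01057, host of MIR378G, gave -0.26 (limma adjusted p = 0.262). Mature microRNAs are too short for these libraries and were not measured. The mature sequences of the host with the best known product, and of 2 others, are given from RefSeq (GRCh38.p14) with the seed, bases 2 to 8, in capitals. No seed is shared between them.

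hsa-miR-9-5p: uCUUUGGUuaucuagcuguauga

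hsa-miR-9-3p: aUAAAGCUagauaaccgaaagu

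hsa-miR-924: aGAGUCUUgugaugucuugc

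hsa-miR-570-3p: cGAAAACAgcaauuaccuuugc

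Each LINC gene was set beside its nearest tested protein-coding gene, since a noncoding RNA and its neighbour can share a promoter region or act on each other. The median gap was 19939 bp. Of the 160 neighbours, 64 were called, where 37.7% of all protein-coding genes were. Both genes were called in 17 pairs, 9 in the same direction and 8 in opposite directions. The sign was the same in 77 pairs (48.1%). Among 1145 other noncoding rows the same count gave 62.8%, with 72.2% for rows that overlap their neighbour and 51.5% for those over 5 kb away. Only 7 LINC genes overlapped a protein-coding row, 1 of which (LINC00649) was a row with the gene's own symbol, and 113 were over 5 kb from theirs.

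Divergent pairs within 5 kb, which start back to back, numbered 23. In them 3 LINC genes and 11 neighbours were called, against 65 noncoding rows and 99 neighbours in 285 such pairs of other noncoding rows. Of all 160 LINC genes 25.0% were called, of all genes 35.6% and of all protein-coding genes 37.7%. A difference between these counts was not tested. The sign was the same in 10 of the 23 pairs (43.5%), against 50.9% of those 285. LINC01424 and UBE2G2, a ubiquitin-conjugating enzyme gene 405 bp away, were the pair with both called, and in opposite directions. LINC01424 had 2.78, 3.56 and 2.68 CPM in controls and 1.61, 2.22 and 1.85 CPM after LOC550643 siRNA, without overlap, and it fell by 0.66 (SE 0.185, limma adjusted p = 0.0171). UBE2G2 rose by 0.26 (limma adjusted p = 0.015). The LINC01424 call ended when control replicate 2 (0.056) or LOC550643 siRNA replicate 1 (0.0601) was left out.

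In the other called neighbours the LINC gene did not pass. Of these pairs, only that of LINC01057 fell under the rule for named genes. ZFP36L2, the gene of an mRNA decay factor, rose by 0.53 (limma adjusted p = 0.000116) beside LINC01126 at -0.72 (limma adjusted p = 0.0782). ICMT, a methyltransferase of prenylated proteins, rose by 0.45 (limma adjusted p = 0.000296) beside LINC00337, now ICMT-DT, at -0.37 (limma adjusted p = 0.26). NOTCH1, a receptor gene, rose by 0.42 (limma adjusted p = 0.0213) beside LINC01573 at -0.15 (limma adjusted p = 0.429). SLC44A3, a transporter gene, fell by 0.83 (limma adjusted p = 0.00148) beside LINC01057, 61 bp away, at -0.26 (limma adjusted p = 0.262). With the same sign, BRINP3 gave 0.35 beside LINC01351 at 0.34, FAM92A1 -0.39 beside LINC00535 at -0.16, and POU3F3 -0.32 beside LINC01158 at -0.06. With opposite signs, CXorf40A gave 0.30 beside LINC00893 at -0.27, and CXorf40B 0.29 beside LINC00894 at -0.32. SLC12A2 gave -0.40 beside LINC01184 at 0.19, also with opposite signs. A difference in response between the genes of a pair was not tested. Of the LINC genes, 9 now carry the suffix DT for divergent transcript, and none of those 9 was called. Of all 160 LINC genes 25.0% were called, and of all genes 35.6%, and 9 genes are too few to tell apart from these shares.

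**Figure D4:**
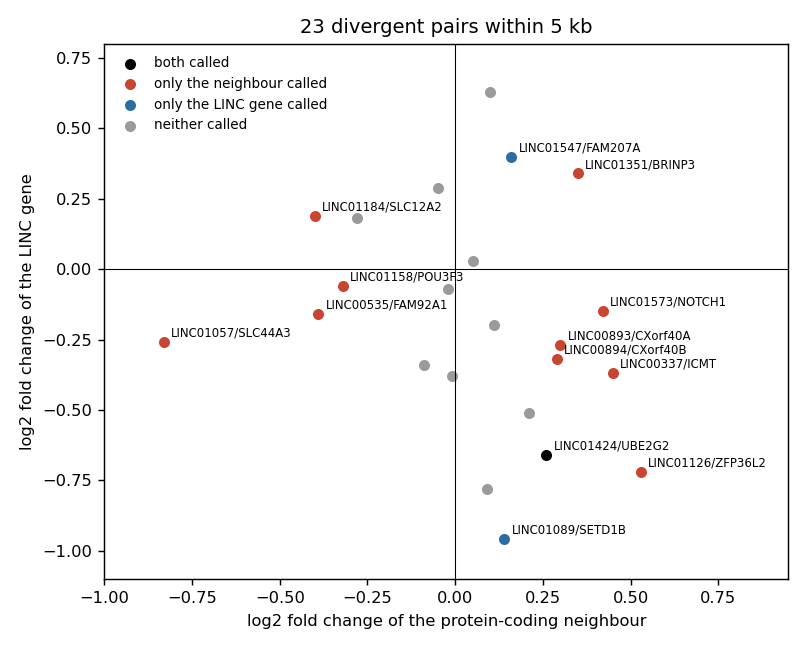
Log2 fold change (LOC550643 siRNA over control siRNA) of the LINC gene, vertical axis, against that of its protein-coding neighbour, horizontal axis, for the 23 divergent pairs within 5 kb, coloured by which gene of the pair was called. The points lie on both sides of both zero lines, 10 of 23 have the same sign on both axes, and the pair with both genes called, LINC01424 and UBE2G2, is at the lower right.

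Control replicate 2 stood apart from the other controls for a set of these genes. It was the highest control for 77 of the 160 (48.1%), against 37.5% of all genes and 44.4% of genes under 20 CPM. It was at least 1.5-fold above the mean of the other controls in 20 LINC genes (12.5%), against 5.05% of all genes and 7.8% of those under 20 CPM. In 14 of these 20, LOC550643 siRNA replicate 2 was the lowest siRNA library, compared with 52 of the other 140 LINC genes and 26.8% of all genes. Single-exon genes made up 8 of the 20 and 18 of the other 140. Median exonic length was 2974 bases in the 20 and 1860 in the others.

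LINC01004 had 4.18, 12.5 and 1.38 CPM in the controls and 5.42, 1.31 and 5.48 CPM after LOC550643 siRNA. LINC01000 had 42.1, 66.6 and 35.6 CPM and then 56.6, 33.2 and 49 CPM. In both, control replicate 2 was the highest and LOC550643 siRNA replicate 2 the lowest of the 6 libraries. The nuclear RNA MALAT1 had 171, 287.1 and 147 CPM and then 157.9, 141.3 and 168.1 CPM, and KCNQ1OT1, a long unspliced antisense RNA, had 5.48, 14.2 and 2.91 CPM and then 6.08, 3.10 and 4.17 CPM. Over all genes 18.1% were called lower and 17.5% higher, and over the 160 LINC genes 18.1% and 6.88%. Of the 20 genes, 3 were called lower (LINC00176, LINC00341 and LINC01341) and 1 higher (LINC01411). The part of this library in those calls is given by their values without control replicate 2, of which the LINC01411 value stayed past the threshold (1.42, limma adjusted p = 0.0172).

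**Figure D5:**
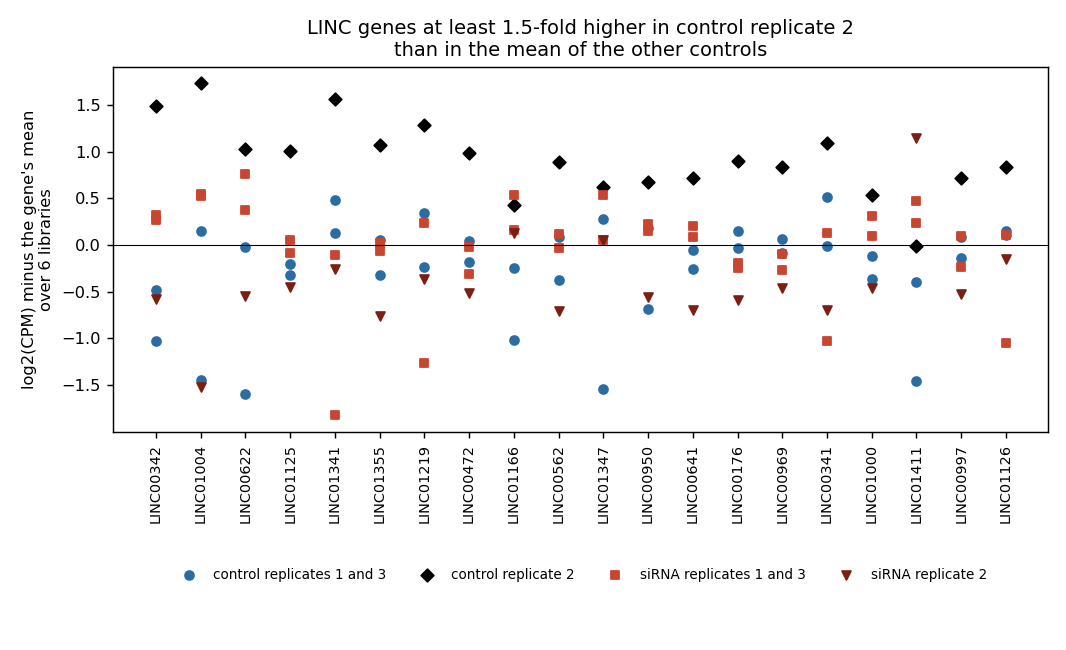
Level of the 20 LINC genes that were at least 1.5-fold higher in control replicate 2 than in the mean of the other controls, as log2 CPM minus the gene's mean over the 6 libraries. Control replicate 2 (black diamonds), by which these genes were chosen, is the highest of the controls in each, and LOC550643 siRNA replicate 2 (dark triangles) is the lowest siRNA library in 14 of the 20, against 52 of the other 140 LINC genes.

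Genes that act on noncoding RNA were read from a list beside the LINC genes. Of 18 tested genes of nuclear RNA turnover, 4 were called higher, 2 lower and 12 neither, where 35.6% of all genes were called. Their median change on the log2 scale was 0.18 against -0.02 over all genes, which were not matched in level. All but C1D were above 20 CPM, where 41.5% of all genes were called, 24.7% higher and 16.8% lower. ZFC3H1, a scaffold that links polyadenylated nuclear RNA to the exosome, fell by 0.56 (SE 0.126, limma adjusted p = 0.00553), from 122.8, 178.8 and 130.6 CPM to 88.2, 95.7 and 106.6 CPM. SKIV2L2, the nuclear exosome helicase, rose by 0.24 (limma adjusted p = 0.0268), and SRRT, which ties the cap-binding complex to RNA decay, by 0.24 (limma adjusted p = 0.0334). NCBP2 rose by 0.23 with overlapping groups (limma adjusted p = 0.0444), and EXOSC10 rose by 0.18 (limma adjusted p = 0.0455). PAPOLG, a nuclear poly-A polymerase, fell by 0.22 (limma adjusted p = 0.0464).

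Of 41 tested long noncoding RNAs with other names, 3 were called higher, 9 lower and 29 neither, and their median was -0.11. Among all noncoding rows other than the LINC genes, 7.16% were called higher and 13.6% lower, and among all genes 17.5% and 18.1%. SNHG16, which hosts small nucleolar RNAs in its introns, fell by 1.25 (SE 0.081, limma adjusted p = 2.73e-06), from 467.9, 438 and 533.7 CPM to 202.1, 205.1 and 196.2 CPM. HCP5 fell by 0.69 (limma adjusted p = 0.00066). RPPH1, the RNA of ribonuclease P, has no poly-A tail and is therefore poorly covered here. Its few reads fell by 1.46 (limma adjusted p = 0.00217), from 1.389, 1.495 and 0.893 CPM to 0.4925, 0.4375 and 0.357 CPM. The last value was close to the floor of 0.349 CPM in LOC550643 siRNA replicate 3. MIR17HG, host of the miR-17 cluster, rose by 0.59 (limma adjusted p = 0.000473).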

How the data were processed

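Poly-A RNA of 6 HEK293T samples was sequenced as 75 bp read pairs from dUTP-marked libraries, aligned with STAR 2.4.0k to hg19 and tested by the authors with edgeR 3.6.8, per the labels' protocols; HOMER is named in the submitters' processing notes. The deposited values are a signal scaled by the authors to one total per library. Low values, the only ones checked, were whole multiples of a library step (100% within 0.1 step). Read pairs were recovered by taking a step as a read end and assuming that both ends of a pair were counted. Only 59.2% to 61.0% of low values were even multiples, so the read pairs are approximate. The authors' deposited log2 fold changes and adjusted p-values were read only for direction. Values were divided by the library total to give CPM after TMM scaling, with a filter of 10 read pairs, and tested with limma 3.58.1 in R 4.3.3 (edgeR 4.0.16 for scaling) on log2(value + 1 deposited unit, 0.034 CPM), two-sided, without a block; fold changes are on that scale. It was tested on simulated data. Pairing by replicate number was checked: same-numbered deviations correlated at 0.06, -0.28 and -0.12, so the numbers do not pair the samples. Named genes followed a rule: the 12 highest levels, the 10 largest rises and falls without overlap, small-protein genes, microRNA hosts and their neighbours. Some genes, among them most of the divergent pairs described, were named outside it. The members and lists were chosen with earlier results of these data known. Intervals and floors cover counting error only.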

Additional observations from a re-analysis of the deposited data

How the results depend on the processing

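With the replicate number as a block, limma called 12 LINC genes higher and 22 lower, and edgeR with the block, added after seeing the data, called 12 and 25; the main limma fit without it called 11 and 29. Rises were 7 with no filter on low values, 5 with libraries thinned to the shallowest and 4 at an adjusted p under 0.01. Falls were 19 with DESeq2, 14 after thinning and 10 at an adjusted p under 0.01. All genes at an adjusted p under 0.01 gave 1775 higher and 1743 lower. With 1 library left out, rises were 6 to 9 and falls 18 to 26. Of the 40 called genes, 11 (3 higher, 8 lower) were called in each of 19 other fits, and 0 of the 40 changed sign in any of them. Of the 40, 22 were lost after thinning (of those described, LINC00152, LINC00176, LINC00471, LINC00473, LINC00602, LINC00634, LINC00693, LINC00853, LINC00888, LINC01024, LINC01128, LINC01197, LINC01311, LINC01341, LINC01411, LINC01424 and LINC01605), 12 with DESeq2 (of those described, LINC00152, LINC00473, LINC00482, LINC00888, LINC01061, LINC01197 and LINC01341), 11 with no filter, 8 with the limma block and 1 to 6 in each other setting with all libraries that lost any. LINC00493 passed with the block (limma adjusted p = 0.018). Sign changes occurred in genes that were not called. With 1 library left out, LINC01000 ranged from -0.23 to 0.21 (0.21 without control replicate 2, 0.18 without LOC550643 siRNA replicate 2), LINC00339 from -0.15 to 0.019, LINC01021 from -0.002 to 0.20, LINC00461 from -0.16 to 0.02 and LINC00467 from -0.27 to 0.059 (0.041 without control replicate 3 or LOC550643 siRNA replicate 3). LINC00467 gave 0.001 with voom, and LINC01057 gave 0.058 after thinning. The cause was not tested. LOC550643 siRNA replicate 3, with 8604236 read pairs, limits genes under about 0.349 CPM.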
